A study of Sus scrofa with 8 samples.

Results

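The miR-29 family comprised 5 of the 686 miRNA targets on a porcine Agilent array: ssc-miR-29a, ssc-miR-29b, ssc-miR-29c and the human-named opposite-strand entries hsa-miR-29a-5p and hsa-miR-29b-1-5p. All non-control entries whose name carries the miRNA number 29 were taken, whatever their letter, arm or species. They filled 14 of 1683 probes and 100 of 13720 spots. The 3 porcine members were bright on all 8 arrays and the 2 opposite-strand entries were well above background on none. Total RNA came from the corpus luteum of crossbred gilts aged 6 to 8 months from a single commercial herd. In the pregnant group (4 arrays) gilts were inseminated 12 and 24 hours after the second estrus was detected, and luteal tissue was collected on day 14 of pregnancy. In the cyclic group (4 arrays) gilts were not inseminated and the tissue was collected on day 14 of the estrous cycle. The labels number the replicates of a group and speak of individual samples without tying each to a gilt of its own, so p-values measure the spread between these samples.

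MicroRNAs (miRNAs) are short RNAs that lower the output of messenger RNAs with matching sites. The mature miR-29 miRNAs of mammals share their seed, the 5′ stretch that finds those sites, and so share most targets. They are best known as repressors of extracellular matrix genes, above all the fibrillar and basement membrane collagens, elastin and fibrillin, and also of DNA methyltransferases and of the survival gene MCL1, as shown mainly in human and mouse cells. In such cells transforming growth factor beta lowers miR-29 while matrix is laid down. The corpus luteum, the progesterone-secreting gland left by the ovulated follicle, is kept when a pig becomes pregnant, whereas in a non-pregnant pig it regresses late in the cycle and is replaced by collagen-rich scar tissue. Collagens and other messenger RNAs were not measured on this array.

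In the RefSeq annotation of the pig assembly Sscrofa11.1 the family has 4 loci on 2 chromosomes. MIR29B-1 and MIR29A are direct neighbours on one of them, and MIR29B-2 and MIR29C are direct neighbours on the other. The array entry ssc-miR-29b bears no locus number, so it was not divided between MIR29B-1 and MIR29B-2.

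Values are probe intensities relative to the array's 75th percentile among targets detected on all arrays, on a log2 scale, so a value of 0 lies at that percentile. It was 189 to 316 intensity units, and negative control spots had medians of 0.437 to 1.29. Precision is limited by having 4 arrays in each group. Slide 1 held pregnant replicates 1 and 2 and was scanned on a day of its own. Slide 2 held cyclic replicates 1 and 2, slide 3 held replicates 3 and 4 of each group, and these slides shared a scan day. Cyclic replicate 1 lay nearer to the pregnant mean than to the mean of the other 3 cyclic arrays in 149 of the 211 tested targets (70.6%), and results are therefore given with and without it. This share was not computed for the other arrays. Of 7 entries for the muscle and liver miRNAs miR-122, miR-206, miR-133 and miR-1, 0 were detected on any array. The same held for 445 of all 686 targets, so this says little about the tissue label.

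The comparison of pregnant with cyclic glands asked whether miR-29 differed between day 14 glands of inseminated and of non-inseminated gilts. All 3 measured members averaged lower in pregnancy, by 0.28 to 0.54 on the log2 scale, and none of these differences passed the test over all 8 arrays. After scaling, cyclic replicates 2, 3 and 4 read above all 4 pregnant arrays for each member, whereas cyclic replicate 1 read at the pregnant level.

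ssc-miR-29a, encoded beside MIR29B-1, read 1.79, 1.71, 1.80 and 1.71 on pregnant replicates 1 to 4, against 1.66, 2.30, 2.07 and 2.24 on cyclic replicates 1 to 4. The 4 pregnant arrays were close together, 3 cyclic arrays lay above all of them and the remaining cyclic array lay below all of them. The group means were 1.75 ± 0.04 in pregnant and 2.06 ± 0.29 in cyclic glands (SD, n = 4 each). The pregnant level was 0.805 of the cyclic one (log2 difference −0.31 ± 0.14, SE, 95% interval −0.63 to 0.00, limma adjusted p = 0.143).

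ssc-miR-29b, whose mature sequence is known to come from both loci in mammals, read 1.34, 1.43, 1.45 and 1.17 on pregnant replicates 1 to 4, against 1.29, 2.33, 1.79 and 2.13 on cyclic replicates 1 to 4. Cyclic replicate 1 lay inside the pregnant range, and the other 3 cyclic arrays lay above that range. The means were 1.35 ± 0.13 in pregnant and 1.89 ± 0.46 in cyclic glands. This was the largest difference among the 3 members, with the pregnant level at 0.689 of the cyclic one (−0.54 ± 0.20, 95% interval −0.97 to −0.10, limma adjusted p = 0.104). Its unadjusted p was 0.0201, the only one of the 3 under 0.05.

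ssc-miR-29c, encoded beside MIR29B-2, read 0.20, 0.37, 0.13 and 0.17 on pregnant replicates 1 to 4, against 0.12, 0.81, 0.46 and 0.63 on cyclic replicates 1 to 4. Here too cyclic replicate 1 was the lowest of the 8 arrays, while the other 3 cyclic arrays were the highest. The means were 0.22 ± 0.10 in pregnant and 0.50 ± 0.29 in cyclic glands, and the pregnant level was 0.821 of the cyclic one (−0.28 ± 0.15, 95% interval −0.62 to 0.05, limma adjusted p = 0.218).

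**Figure D1:**
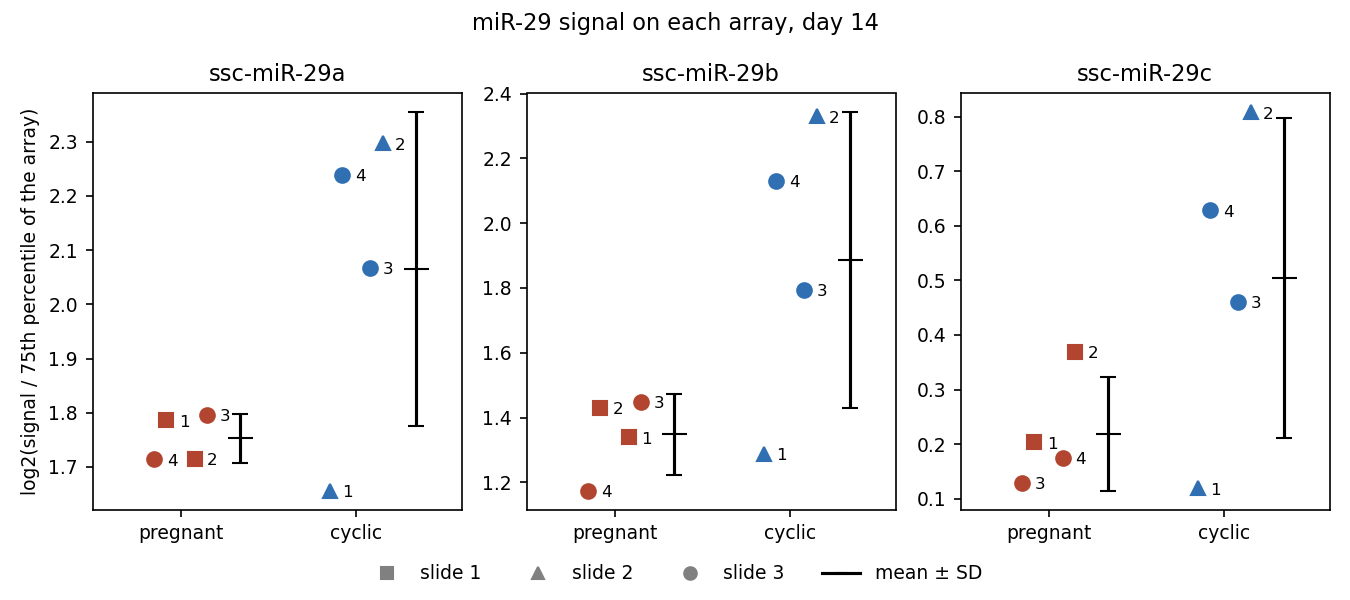
Log2 signal of each porcine miR-29 over the 75th percentile of the array (y axis), for 4 pregnant and 4 cyclic arrays (x axis). Each point is 1 array labelled with its replicate number, the shape gives the slide, and the bar is the mean ± SD. Cyclic replicates 2, 3 and 4 lie above all pregnant arrays in every panel, and cyclic replicate 1 lies at their level or below.

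Of the 211 targets tested, 24 passed limma after Benjamini-Hochberg adjustment (11.4%), 11 higher and 13 lower (6.16% lower), and 73 had an unadjusted p under 0.05 (34.6%), 33 of them lower (15.6%). With the array's 75th percentile taken over all probes the split was 55 higher and 7 lower, and without scaling 3 higher and 6 lower; with normexp background correction 11 targets passed (5.21%). Against this background 0 of the 3 tested miR-29 members passed and 1 had an unadjusted p under 0.05. No member had groups that did not overlap, which held for 36 of the tested targets (17.1%), 15 of them lower (7.11%). The median difference was −0.31 over the 3 members and 0.01 over all tested targets, of which 104 (49.3%) were negative. In whole tissue, fewer cells of a type and less of a miRNA per cell cannot be told apart.

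Without cyclic replicate 1 every measured member passed. ssc-miR-29b then averaged 1.35 ± 0.13 in the 4 pregnant and 2.09 ± 0.27 in the 3 remaining cyclic glands, with the pregnant level at 0.600 of the cyclic one (−0.74 ± 0.14, limma adjusted p = 0.00195). For ssc-miR-29a the pregnant level was 0.733 of the cyclic one (−0.45 ± 0.10, adjusted p = 0.00722), and for ssc-miR-29c it was 0.751 (−0.41 ± 0.12, adjusted p = 0.0195). The calls of many other targets were gained in the same way, since 81 of 211 passed without this array (38.4%), 40 of them lower (19.0%). All 4 pregnant arrays lay below the other 3 cyclic arrays for 39 targets (18.5%), the 3 members included, and in 24 of these (11.4% of those tested) cyclic replicate 1 did not lie above all pregnant arrays, again with the 3 members among them. The restriction was chosen with the position of this array known.

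Slides and scan days also bear on the comparison. Cyclic replicates 1 and 2 lay on slide 2 and were the lowest and the highest cyclic array for each member, 1.29 and 2.33 for ssc-miR-29b. On slide 3, which held 2 arrays of each group, ssc-miR-29a averaged 1.75 in pregnant and 2.15 in cyclic glands (−0.40, limma adjusted p = 0.193). ssc-miR-29b averaged 1.31 in pregnant and 1.96 in cyclic glands there (−0.65, adjusted p = 0.0712), and ssc-miR-29c 0.15 in pregnant and 0.54 in cyclic glands (−0.39, adjusted p = 0.195). The groups did not overlap on slide 3 for any of the 3 members, which was the case, in the same direction, for 62 of 211 targets (29.4%). With slide as a fixed block the differences were those of slide 3, with adjusted p of 0.184 to 0.286. On slide 3 alone 29 of all 211 targets passed (13.7%), and with the block 27 (12.8%); no miR-29 member was among either. Among the arrays of scan day 2, which covers slides 2 and 3, the differences were −0.31, −0.57 and −0.35 for ssc-miR-29a, ssc-miR-29b and ssc-miR-29c (adjusted p from 0.307 to 0.433).

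**Figure D2:**
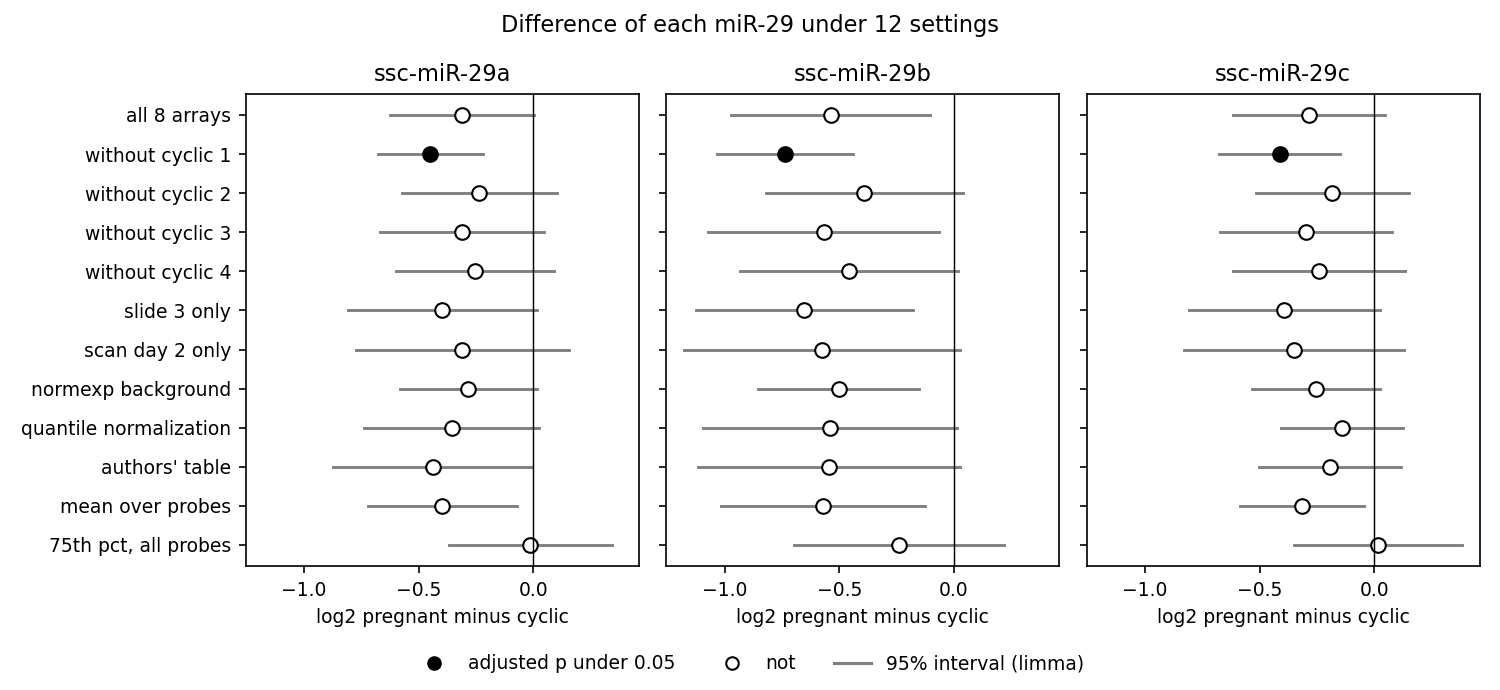
Log2 difference, pregnant minus cyclic (x axis), of each porcine miR-29 with its 95% limma interval under 12 settings (y axis). A filled point has an adjusted p under 0.05. The setting without cyclic replicate 1 is the only one drawn with filled points, and with the 75th percentile over all probes ssc-miR-29a and ssc-miR-29c lie near 0.

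The direction on slide 3 was that over all arrays, but for ssc-miR-29c it depended on the scaling. With the 75th percentile over all probes the median difference of all tested targets was 0.31, in place of 0.01, and the members' differences were −0.01 for ssc-miR-29a, −0.24 for ssc-miR-29b and 0.01 for ssc-miR-29c. Relative to that median they were −0.32, −0.54 and −0.29, the same as relative to the median with the scaling used elsewhere. This sameness follows from the arithmetic, since another divisor per array shifts all targets above the floor alike, and it is no further support. With the authors' deposited table, the differences were −0.44, −0.54 and −0.19, and under quantile normalization −0.36, −0.54 and −0.14, with no call in either (adjusted p from 0.159 to 0.487).

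Spread within a group was unequal. The SD over arrays was 0.04, 0.13 and 0.10 in pregnant glands for ssc-miR-29a, ssc-miR-29b and ssc-miR-29c, and 0.29, 0.46 and 0.29 in cyclic glands. A larger SD in cyclic glands was common on this array, occurring in 154 of 211 tested targets (73.0%), and the median SD over targets was 0.17 in pregnant and 0.29 in cyclic glands. Over the other 3 cyclic arrays the SDs of the members were 0.12, 0.27 and 0.17, and the cyclic SD was the larger one in 126 of the 211 targets (59.7%). Between the spots of the ssc-miR-29a probe on an array the coefficient of variation was 1.83% to 7.83%.

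The highest arrays were the same for each member. Cyclic replicates 2, 4 and 3 were the top 3 arrays, in that order, for ssc-miR-29a, ssc-miR-29b and ssc-miR-29c alike. The lowest array was cyclic replicate 1 for ssc-miR-29a and ssc-miR-29c, and pregnant replicate 4 for ssc-miR-29b. The order among the 4 pregnant arrays differed between members.

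Whether members differed in their change was tested on the difference between each pair within an array, in which the array scaling cancels. The gap of ssc-miR-29a over ssc-miR-29b, which are neighbours at the MIR29B-1 and MIR29A locus, was 0.40 ± 0.11 in pregnant and 0.18 ± 0.18 in cyclic glands (SD, n = 4 each), a change of 0.23 (2-sided exact permutation p = 0.114, adjusted over 3 pairs 0.171). For ssc-miR-29b over ssc-miR-29c the gap was 1.13 ± 0.14 in pregnant and 1.38 ± 0.17 in cyclic glands, a change of −0.25 (exact permutation p = 0.0571, adjusted 0.171). For ssc-miR-29a over ssc-miR-29c it was 1.53 ± 0.14 in pregnant and 1.56 ± 0.06 in cyclic glands, a change of −0.03 (exact permutation p = 0.771). Without cyclic replicate 1 the change of ssc-miR-29a over ssc-miR-29b was 0.29, with pregnant arrays at 0.28 to 0.54 and the other 3 cyclic arrays at −0.03 to 0.27, which do not overlap (exact permutation p = 0.0286, adjusted 0.0857). That of ssc-miR-29b over ssc-miR-29c was then −0.32 (exact permutation p = 0.0571, adjusted 0.0857). The smallest p that either number of arrays allows is 0.0286, and a single pair at that p has an adjusted p of 0.0857, so no pair could pass on its own and the tests do not show that the members changed alike.

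Each porcine member was measured by 2 probes with 10 spots each, and every one of these spots was well above background on all 8 arrays, none saturated. The brighter probe, which supplied the values above, read 619 to 1489 intensity units for ssc-miR-29a, 426 to 1495 for ssc-miR-29b and 213 to 520 for ssc-miR-29c before scaling. In these intensities cyclic replicate 3 lay within the pregnant range for each member, with pregnant arrays at 619 to 1045 and cyclic replicate 3 at 810 units for ssc-miR-29a, 426 to 822 and 670 for ssc-miR-29b, and 213 to 329 and 266 for ssc-miR-29c, so its place above all pregnant arrays rests on the scaling. The dimmer probe read 231 to 680, 63.5 to 242 and 189 to 454 units for the same members. Both probes of every member had lower means in pregnancy. For ssc-miR-29a the dimmer probe differed by −0.53 and the brighter by −0.31. For ssc-miR-29b the 2 values were −0.61 and −0.54, and for ssc-miR-29c they were −0.30 and −0.28.

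The 2 probes of ssc-miR-29a thus gave unequal differences. The dimmer one lay below the brighter one by a log2 gap of −1.48, −1.40, −1.44 and −1.43 on pregnant replicates 1 to 4, against −1.37, −1.18, −1.20 and −1.13 on cyclic replicates 1 to 4. This gap was wider on every pregnant than on every cyclic array. For ssc-miR-29b the groups of gaps did not overlap either, with −2.75 to −2.67 in pregnant and −2.65 to −2.59 in cyclic glands, a smaller separation. For ssc-miR-29c they overlapped, at −0.21 to −0.17 in pregnant and −0.20 to −0.12 in cyclic glands. Among 131 tested targets with at least 2 probes detected on all arrays, 14 had gaps that did not overlap (10.7%). With the mean over both probes the differences were −0.40, −0.57 and −0.32 for ssc-miR-29a, ssc-miR-29b and ssc-miR-29c (limma adjusted p from 0.0989 to 0.119).

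**Figure D3:**
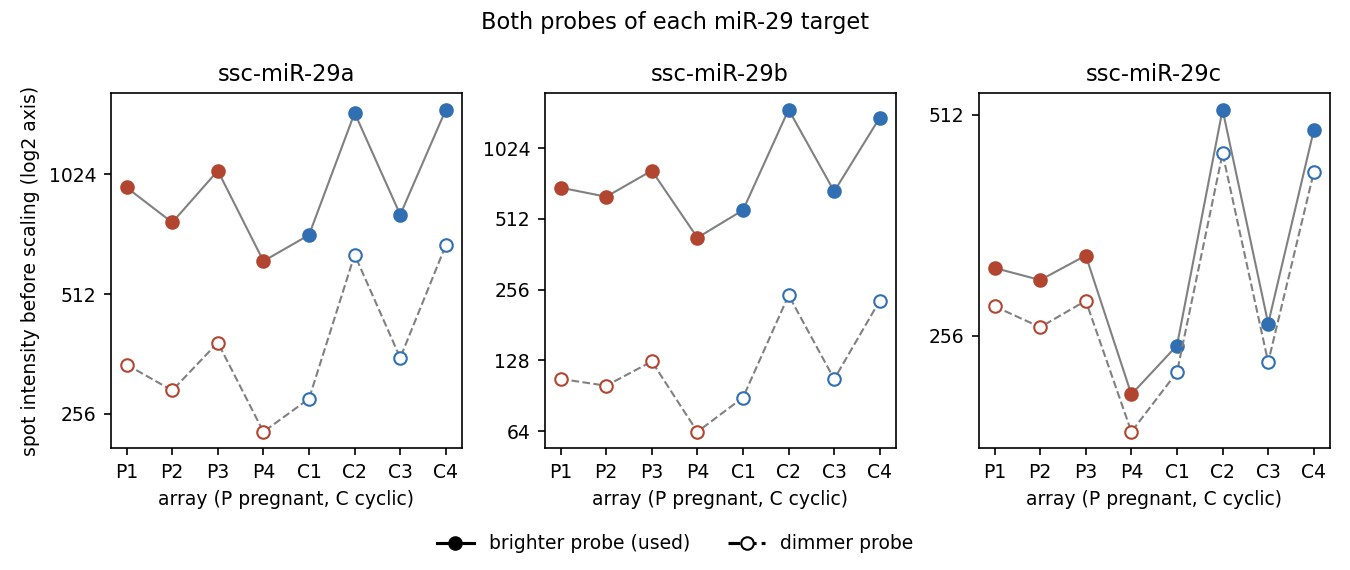
Intensity before scaling between arrays (y axis, log2 axis) of the brighter (filled) and dimmer (open) probe of each porcine miR-29 on the 4 pregnant (P, red) and 4 cyclic (C, blue) arrays. Both probes of a member rise and fall together from array to array, and the distance between the 2 lines of ssc-miR-29a is wider on the pregnant arrays.

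The opposite strands of the miR-29a and miR-29b-1 hairpins were represented by hsa-miR-29a-5p and hsa-miR-29b-1-5p, with 4 probes each. None of the 160 spots of either entry over the 8 arrays was well above background, and probe intensities ran from −1.78 to 5.16 for hsa-miR-29a-5p and from −3.05 to 3.09 for hsa-miR-29b-1-5p. These entries were designed on the human sequence, and no level or fold is given for them.

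The targets whose profile over the 8 arrays was most like the mean of the 3 members were hsa-miR-203a-3p, ssc-miR-155-5p, ssc-miR-132, ssc-miR-21 and mmu-miR-21a-3p, with Pearson's r from 0.902 to 0.934 and Spearman's rho from 0.667 to 0.905 (n = 8 arrays). These coefficients are a description without a test, because the arrays share the group structure and the scaling, and because cyclic replicates 2 to 4 stood apart from the other 5 arrays. After removal of the group means r was 0.847 to 0.880. That step leaves the distance of cyclic replicate 1 from its group in place. The mean of the 3 members was 1.02 there and 1.44 to 1.81 on the other cyclic arrays, against 1.02 to 1.17 on the pregnant arrays. The closest, hsa-miR-203a-3p, an miRNA of stratified epithelia in human and mouse, was detected on 4 arrays only and lay at the floor on 3.

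ssc-miR-155-5p, induced in activated lymphocytes and macrophages, read −2.003, −2.201, −2.651 and −2.268 on pregnant replicates 1 to 4, against −2.040, −0.815, −1.434 and −1.004 on cyclic replicates 1 to 4. Cyclic replicate 1 lay within the pregnant range, as for ssc-miR-29b, and the other cyclic arrays lay above it. ssc-miR-21, abundant in many tissues and induced in wounds and tumours, read 5.35, 5.44, 5.39 and 5.14 on the pregnant and 5.38, 5.89, 5.48 and 6.04 on the cyclic arrays, a difference of −0.37 that did not pass (limma adjusted p = 0.140) and was 0.13 under quantile normalization. ssc-miR-132 read −0.87, −0.94, −1.20 and −0.62 on the pregnant and −1.004, 0.99, 0.83 and 0.96 on the cyclic arrays. The opposite profile, high in pregnancy and on cyclic replicate 1, was closest in ssc-miR-31 (r = −0.937) and hsa-miR-125a-5p (r = −0.931). ssc-miR-31 read −0.23, −0.28, −0.17 and −0.16 on the pregnant and −0.23, −0.66, −0.65 and −0.72 on the cyclic arrays (difference 0.35 ± 0.13, limma adjusted p = 0.105).

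**Figure D4:**
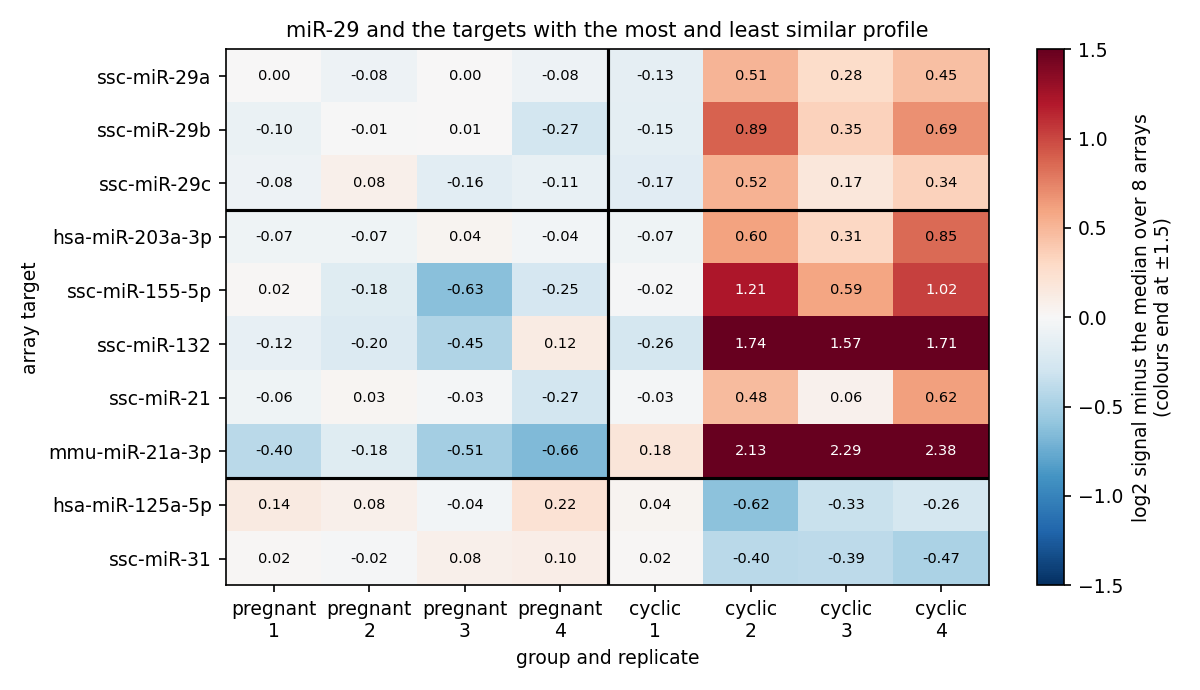
Log2 signal of each target minus its median over the 8 arrays (colour and number), with pregnant arrays left and cyclic arrays right. Rows are the 3 porcine miR-29 members, the 5 targets with the highest correlation to their mean and the 2 with the lowest; cyclic replicate 1 resembles the pregnant columns.

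Other miRNAs tied to matrix and fibrosis were read from 2 lists. Of 14 names known to restrain fibrosis other than miR-29 (let-7d, miR-26a, the miR-30, miR-133 and miR-200 families), 9 entries were tested. Apart from ssc-miR-26a, ssc-let-7d-5p and, of the miR-200 family, hsa-miR-141-3p, these were all miR-30 entries. No miR-133 entry was tested. Of the 9, 0 passed limma in either direction (11.4% of all tested targets did) and 0 had a negative difference (49.3% of all tested targets did). Their median was 0.10, against 0.01 over all tested targets. The brightest were ssc-miR-26a (0.04), ssc-miR-30b-5p (0.02), ssc-let-7d-5p (0.39, adjusted p = 0.179) and ssc-miR-30a-5p (0.18); miR-30 represses the matrix regulator CTGF in rodent heart. The sign of 3 entries turned without scaling, and of 2 under quantile normalization, with the authors' table and with the scanner's total gene signal. Without cyclic replicate 1, 2 of the 9 were higher, as were 41 of all 211 tested targets. With the 75th percentile over all probes 3 of the 9 were higher, as were 55 of the 211. The list's median was then 0.40 (all tested targets 0.31).

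Of 7 names known to promote fibrosis (miR-21, miR-192, miR-199a, miR-199b, miR-214, miR-155 and miR-145), 11 entries were tested, 2 were lower (6.16% of all tested targets were), 0 higher and 9 did not pass. The median was −0.38. The lower entries were mmu-miR-21a-3p, the opposite strand of miR-21 (−2.18 ± 0.41, limma adjusted p = 0.0102), and ssc-miR-155-5p (−0.96 ± 0.25, adjusted p = 0.0316). The other tested miR-155 entry, bta-miR-155, did not pass (−0.34, limma adjusted p = 0.269). Without cyclic replicate 1 it did not pass either (−0.42, limma adjusted p = 0.134). The call of ssc-miR-155-5p was lost with the 75th percentile over all probes (−0.66, adjusted p = 0.0659), without scaling (adjusted p = 0.157) and with the total gene signal (adjusted p = 0.0568). The list holds 11 of the 211 tested targets and takes in 3 of the 5 with the profile closest to miR-29. These are ssc-miR-155-5p and 2 strands of miR-21, ssc-miR-21 and mmu-miR-21a-3p. The list was chosen with earlier results of these data known, so this overlap is a description without a test. Without cyclic replicate 1, 7 of the 11 were lower (19.0% of all tested targets were). These 7 were the strands of miR-199a and miR-199b, the 2 strands of miR-21, and ssc-miR-155-5p. The miR-145 entries, ssc-miR-214 and bta-miR-155 did not pass. The list's median became −0.08 with the 75th percentile over all probes, against 0.31 over all tested targets.

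Fibroblasts are the main makers of collagen in most tissues, and values of their markers stand here beside those of miR-29. Of 6 tested entries for miR-199a, miR-199b, miR-214 and miR-152, 0 passed limma (11.4% of all tested targets did). The median was −0.39, and 4 were negative (49.3% of all tested targets were). Those 4 were the miR-199a and miR-199b entries, whereas ssc-miR-214 (0.11) and ssc-miR-152 (0.09) were positive. Leaving out cyclic replicate 1, 4 of the 6 were lower (median −0.61), as were 40 of all 211 tested targets (19.0%). These 4 were again the miR-199a and miR-199b entries, and ssc-miR-214 differed by −0.02. On slide 3 alone 3 of the 6 were lower (median −0.78), all of them miR-199 entries, as were 19 of the 211. With the 75th percentile over all probes the median was −0.09, against 0.31 over all tested targets. Their summed signal ran from 4.55 to 4.97 times the 75th percentile in pregnant glands and from 4.31 to 9.08 in cyclic glands. Of 8 tested leukocyte entries 1 was lower, ssc-miR-155-5p (6.16% of all tested targets were lower). The other tested miR-155 entry, bta-miR-155, did not pass (−0.34, limma adjusted p = 0.269). The brightest leukocyte entry, hsa-miR-223-3p of granulocytes, differed by −2.29 (adjusted p = 0.0757) and is named after its values were seen. The count of lower leukocyte entries was 3 without cyclic replicate 1 (40 of all 211 targets were lower) and 2 on slide 3 (19 of 211). It was 0 without scaling, with the total gene signal and with the 75th percentile over all probes. With that percentile the list's median was 0.08 in place of −0.22, and that of all tested targets 0.31 in place of 0.01. The summed signal of the leukocyte entries ran from 1.01 to 1.23 in pregnant and from 0.929 to 5.23 in cyclic glands. The part of either cell type in the miR-29 values was not tested. For endothelial, smooth muscle, erythroid and epithelial markers 0 of 4, 4, 1 and 2 tested entries passed (11.4% of all tested targets did).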

How the data were processed

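Total RNA (integrity number above 8 and 100 ng labelled with Cy3, per the labels) of 8 samples was hybridised to 1-colour arrays. The authors deposited scanner files with intensity values per spot, background-subtracted by Agilent Feature Extraction (10.7.3.1 per the file headers, 10.7 per the submitters' processing notes), and a table of their own. Compared with the scanner files at 2806 bright spots (r from 0.878 to 0.974), the deposited table holds log2 values, centred per spot and in the same direction; its scaling between arrays stays unknown. For cyclic replicates 2 and 4 its deposited columns were taken as a score, because 3 cells above 100 were read as missing. Its columns had medians of −0.000302, 9.45e-05, −9.45e-05 and 0.0318 for pregnant replicates 1, 2, 3 and 4, and of 0.0108, −0.000283, 0.000689 and −0.000205 for the cyclic ones.

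Control spots (715 per array) and outlier spots (384 to 453) were left out. Signals were averaged per probe, divided by the 75th percentile over targets detected on all arrays, floored at 0.0344 (the 1st percentile of detected signals) and put on a log2 scale. The probe with the highest mean represented a target. Detection of a probe needed a share of at least 0.5 of its spots well above background, and targets detected on at least 4 arrays were tested with limma 3.58.1 (eBayes with trend) in R 4.3.3, adjusted over 211 targets at 0.05. Member pairs were compared by exact permutation over 70 relabellings. Alternatives included normexp on median spot and background signals (offset 50), other scalings, slide, scan-day and replicate blocks and leaving out each array. The fit was tested on simulated data.

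The labels give the groups and state no test. Named targets were the miR-29 entries, passing or else the 4 brightest members of each fibrosis list, and the 5 most and 2 least similar profiles. Members, lists and alternatives were chosen with earlier results of these data known. No mature miRNA sequences were used here.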

Additional observations from a re-analysis of the deposited data

Results flagged for a closer look

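Among 60 groups of 4 arrays examined for a single array far from the others, 3 were marked, each time for cyclic replicate 1. The limit marks about 5% of independent groups by chance, but these 60 groups share the same 8 arrays. The cause of the 3 marks was not tested. Cyclic replicate 1 read −2.36 for mmu-miR-21a-3p, −1.004 for ssc-miR-132 and −0.23 for ssc-miR-31. All 3 are among the targets with the most or least similar profile to miR-29, chosen with that array included. For ssc-miR-29a, ssc-miR-29b and ssc-miR-29c themselves the distance of cyclic replicate 1 from the next cyclic array stayed under the limit in groups of 4. Without cyclic replicate 1, ssc-miR-132 differed by −1.83, mmu-miR-21a-3p by −2.70 and ssc-miR-31 by 0.47, against −1.35, −2.18 and 0.35 with it.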

How the results depend on the processing

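Each miR-29 difference was recomputed under 24 other settings. ssc-miR-29a and ssc-miR-29b were negative in all 24 and ssc-miR-29c in 23, the exception being the 75th percentile over all probes, where ssc-miR-29c stood at 0.015. In each case 1 of the 24 settings passed, the one without cyclic replicate 1. Leaving out 1 array at a time gave −0.45 to −0.23 for ssc-miR-29a, −0.74 to −0.39 for ssc-miR-29b and −0.41 to −0.18 for ssc-miR-29c, with adjusted p from 0.00195 to 0.477. The change of ssc-miR-29a minus ssc-miR-29b ran from 0.15 to 0.29 with 1 array left out, that of ssc-miR-29b minus ssc-miR-29c from −0.32 to −0.21 and that of ssc-miR-29a minus ssc-miR-29c from −0.072 to 0.035, reversing at 0.035 without pregnant replicate 2. With the authors' deposited table the changes of these 3 pairs were 0.11, −0.35 and −0.25, against 0.23, −0.25 and −0.03 in the report. No pair passed in 13 other settings. A single pair could not pass on its own in any of them, and with slide 3 alone no pair could, because too few relabellings exist. The count of 24 passing targets was 11 with normexp, 15 under quantile normalization, 62 with the 75th percentile over all probes, 9 without scaling, 10 with the total gene signal, 1 without a detection filter (686 targets), 9 with the mean over probes, and 2 with scan day as a block or on scan day 2 alone; leaving out 1 array gave 7 to 81. The cause of these moves was not tested. Deviations of same-numbered arrays correlated at −0.18 to 0.16, so the numbers were not taken as pairs. With the replicate block 27 targets passed, and the 3 members had adjusted p of 0.161, 0.0738 and 0.171. Signal did not limit the porcine members, all well above background, whereas 4 arrays per group limit every test.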
